A study of Mus musculus with 12 samples.

Results

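Messenger RNA of 10 genes of glycolysis and of the 2,3-bisphosphoglycerate (2,3-BPG) branch was followed in G1E-ER4 cells: the glucose transporter Slc2a1, the enzymes Hk1, Hk2, Pfkl, Aldoa, Pgk1, Eno1, Pkm and Ldha, and the 2,3-BPG enzyme Bpgm. The genes were chosen by name, and each was matched to 1 row of a table of 17210 genes by its mouse symbol. All 10 were among the 11177 genes that passed the filter on low counts. G1E-ER4 is an established mouse erythroid progenitor line that lacks its own GATA1 and carries GATA1 fused to the ligand-binding part of the estrogen receptor, so β-estradiol (EST) switches GATA1 activity on. Every library came from this line after 24 h of retroviral transduction, carrying no insert (empty vector) or the active part of SREBP2 (residues 1 to 468), the transcription factor of cholesterol synthesis. EST or vehicle was then given for 6 h, at 500 nM by the sample protocol and at 200 nM by the text on the series. This gave 4 groups of 3 libraries: Vector (empty vector, no EST), SREBP2 (fragment, no EST), Vector+EST and SREBP2+EST. The libraries are numbered as in the header of the count table, and no label says that they came from separate cultures, so p-values measure the spread between these libraries, which may be technical.

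Glycolysis takes up glucose through GLUT transporters, splits it into trioses and ends in pyruvate, which lactate dehydrogenase turns into lactate. Mature mouse red cells have no mitochondria and make their ATP by this pathway alone. Bisphosphoglycerate mutase diverts 1,3-bisphosphoglycerate into 2,3-BPG, which binds deoxygenated hemoglobin and lowers its affinity for oxygen.

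Library totals were nearly level, at 18700959 to 19152281 counts, and the 10 genes together took between 0.558% and 0.610% of them. Srebf2 lay between 797 and 837 CPM (counts scaled to library size with TMM factors) in the 6 libraries with the fragment and between 355 and 456 CPM in the other 6. For a separate assay of G1E-ER4 cells carrying the retroviral fragment, the paper names the transcript measured as human SREBP2. Its methods give no species for the retroviral construct, and how far reads of the fragment count as mouse Srebf2 was not tested. Gata1 reads, which do not separate the fusion from the cell's own transcript, lay between 1752 and 1786 CPM in Vector and between 420 and 585 CPM elsewhere. The labels also name the cells embryonic stem cells. All 11 erythroid markers listed were above 0 in every library, with a summed level of 8499 to 8923 CPM in Vector and 6688 to 7867 CPM in the other 9 libraries, whereas the pluripotency markers summed to at most 0.650 CPM and Esrrb and Dppa5a were at 0 in 11 of the 12 libraries. On principal components, SREBP2 library 1 and SREBP2+EST library 1 each lay nearer the other SREBP2 group than their own. Their counts differed from those of their group by a chi-square per gene of 6.84 to 11.9, against 2.78 or less between the other libraries of these groups. The 6 fibroblast markers summed to 19.0 to 19.9 CPM in Vector, and with the fragment to 3.97 to 5.32 CPM without EST and 13.3 to 23.2 CPM with it. They split Vector+EST, where libraries 1 and 3 held 4.43 and 4.60 CPM and library 5 stood apart at 22.8 CPM. Without that library the calls of Pgk1 for EST in Vector cells (edgeR adjusted p = 0.0705) and for the fragment alone (0.0634), and of Pfkl (0.151) and Bpgm (0.0807) for the fragment with EST were lost. Such losses were not particular to library 5. Without Vector+EST library 1, the calls of Pgk1 for EST in Vector cells (0.0677) and of Pfkl (0.0906) and Bpgm (0.132) for the fragment with EST were lost too. Most of the fibroblast marker sum was Col1a2 and Col1a1, while Dcn was at 0 in 8 libraries, Lum in 11 and Pdgfra in 7. The neural markers, nearly all Mbp, summed to 177.7 to 184.4 CPM in Vector and to between 198.5 and 244.1 CPM in the other 9 libraries. The part of these markers in the results was not tested. As these are bulk samples, fewer cells of a type and less RNA per cell cannot be told apart.

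The genes differed most in their level, measured as CPM per kilobase of the median annotated transcript. In Vector, Ldha stood first at 1022 ± 1.09 CPM per kb (SD, n = 3), followed by Aldoa at 771 ± 19.7, Pkm at 506 ± 9.36, Eno1 at 419 ± 5.39 and Pgk1 at 227 ± 4.06 CPM per kb. Hk1 came next at 61.6 ± 1.44 CPM per kb, and the 4 lowest were Pfkl at 16.9 ± 0.839, Bpgm at 11.6 ± 0.541, Slc2a1 at 8.69 ± 0.194 and Hk2 at 5.91 ± 0.296 CPM per kb. No neighbours in this order overlapped between their 3 Vector libraries, and the Vector order was the same with the longest transcript as the length. Ldha, Aldoa, Pkm, Eno1 and Pgk1 were thus far above the transporter and the phosphofructokinase Pfkl in transcript level. The order shifted a little between groups. Aldoa stood above Ldha in SREBP2 and in SREBP2+EST, at 976 ± 47.2 and 964 ± 12.6 CPM per kb against 827 ± 37.8 and 825 ± 12.5. In Vector+EST, Ldha stood above Aldoa with the median length, at 923 against 862 CPM per kb, and below it with the longest, at 808 against 827. Eno1 stood above Pkm without overlap in SREBP2, at 556 against 547 CPM per kb, and in Vector+EST, at 589 against 524. They overlapped in SREBP2+EST, where they stood at 573 ± 17.5 and 559 ± 7.52 CPM per kb. The order of Eno1 and Pkm may depend on how reads were divided between Eno1 and its near copy Eno1b. Eno1b stood at 113 ± 6.16 CPM per kb in Vector. Slc2a1 stood above Bpgm in Vector+EST, at 12.01 against 9.39 CPM per kb.

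**Figure D1:**
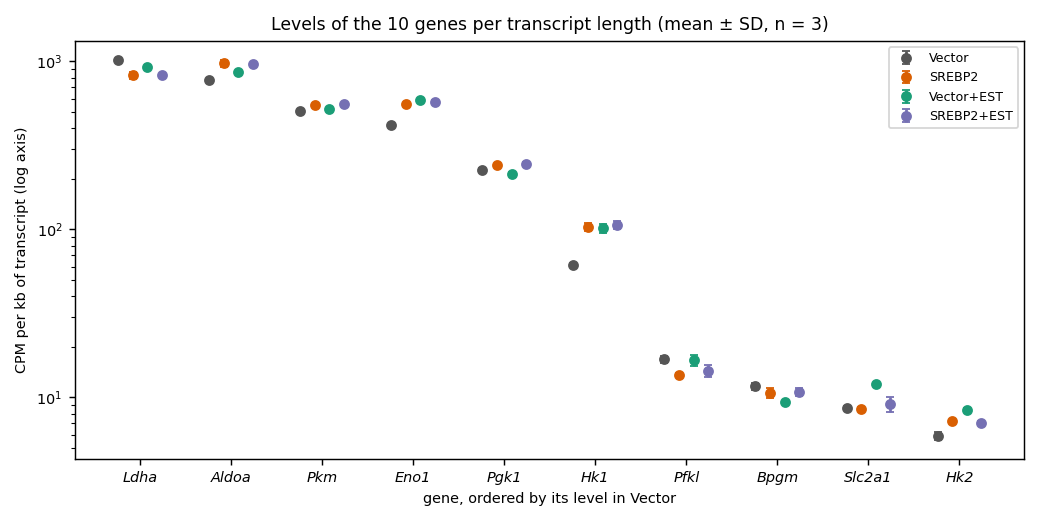
Level of each gene in CPM per kilobase of transcript on a log axis, ordered by the Vector level, with the mean and SD of 3 libraries for each of the 4 groups. Ldha, Aldoa, Pkm and Eno1 lie at 419 CPM per kb or higher in every group, and Pfkl, Bpgm, Slc2a1 and Hk2 lie at 17.9 CPM per kb or lower in every library.

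Because GATA1 and SREBP2 are the factors that were switched on or added, the sequences before the gene starts were searched for 4 short motifs. The windows were the RefSeq promoter windows of GRCm38.p6, which run from 250 bases before to 50 bases after each annotated start, and both strands were read. The GATA motif (AGATAA or TGATAA) occurred in 18.6% of all 32851 windows, the sterol regulatory element motif (TCACNCCAC) in 1.24%, the E-box (CACGTG) in 7.15% and the hypoxia response core (ACGTG), which each E-box also holds, in 19.6%. Among the 17 windows of the 10 genes, 2 held a GATA motif (11.8%), 1 of Aldoa and 1 of Pkm. A second window of Pkm held the sterol regulatory element motif, and 1 window of Ldha held the E-box. The hypoxia response core was present in 8 of the 17 windows (47.1%), which belonged to 7 genes, with Pfkl, Eno1 and Bpgm the ones without it. Windows 2 and 3 of Aldoa overlap and hold the same core, which is counted in both, so the windows are not independent. The single window of Bpgm held none of the 4 motifs. These matches are descriptions of the letters only.

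Shown first are the bases just before the start of the genes with a GATA motif, with the motif in capitals, for Aldoa at chr7:126800448-126800657 on the minus strand and for Pkm at chr9:59656456-59656575 on the plus strand.
Aldoa: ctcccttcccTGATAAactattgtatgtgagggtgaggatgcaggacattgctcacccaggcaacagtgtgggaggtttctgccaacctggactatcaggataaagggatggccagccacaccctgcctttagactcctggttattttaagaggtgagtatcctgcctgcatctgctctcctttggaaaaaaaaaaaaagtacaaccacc
Pkm: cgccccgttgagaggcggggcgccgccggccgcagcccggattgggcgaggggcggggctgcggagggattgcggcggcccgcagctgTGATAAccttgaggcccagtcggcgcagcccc

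The same stretch is given for Ldha at chr7:46845644-46845803 on the plus strand, where capitals mark the E-boxes, and for Bpgm at chr6:34476236-34476355 on the plus strand, which has no capitals because no motif matched.
Ldha: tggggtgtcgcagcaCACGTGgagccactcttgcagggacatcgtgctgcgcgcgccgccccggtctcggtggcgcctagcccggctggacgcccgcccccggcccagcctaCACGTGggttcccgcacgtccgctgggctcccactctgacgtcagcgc
Bpgm: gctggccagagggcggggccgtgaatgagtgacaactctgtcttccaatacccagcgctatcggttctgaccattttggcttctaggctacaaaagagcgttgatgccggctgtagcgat

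The first comparison asked what GATA1 activation by EST does in cells with the empty vector. EST changed 8 of the 10 genes, 5 upward and 3 downward, where 70.6% of all genes tested were called, 35.2% upward and 35.5% downward (edgeR quasi-likelihood F-test, Benjamini-Hochberg adjusted p under 0.05). Among the 6875 genes at least as high as the lowest of the 10 the share was 80.0%, so the count of 8 is near the background. The transporter, both hexokinases, the aldolase and the enolase rose, whereas the kinase Pgk1, Ldha and Bpgm fell. The median log2 fold change of the 10 genes was 0.105, against 0.010 over all genes, and no gene moved as much as 2-fold.

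The second comparison asked what the active SREBP2 fragment does without EST, and shares the Vector libraries with the first. Again 8 of the 10 genes passed the test, 6 upward and 2 downward, where 71.5% of all genes were called, 37.7% upward and 33.8% downward. Among genes at least as high as the lowest of the 10, 80.3% were called. Both hexokinases, Aldoa, Pgk1, Eno1 and Pkm rose, while Pfkl and Ldha fell. Slc2a1 and Bpgm did not pass. The median log2 fold change was 0.101 over the 10 genes and 0.031 over all genes.

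The third comparison asked what the fragment does once EST is present. It changed 8 of the 10 genes, 4 upward and 4 downward, where 21.9% of all genes were called, 14.0% upward and 7.94% downward. Among genes at least as high as the lowest of the 10, 26.9% were called. Aldoa, Pgk1, Pkm and Bpgm rose, and Slc2a1, Hk2, Pfkl and Ldha fell. All 8 differences were small, at most 1.31-fold, and the median was 0.014. The count was 5 without Vector+EST library 1, and 6 without SREBP2 library 1 and SREBP2+EST library 1 together.

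The fourth comparison asked what EST adds in cells that already carry the fragment. None of the 10 genes passed the edgeR test, nor did any other gene (0% of 11177), and none of the 10 passed at an unadjusted p under 0.05, where 506 genes in all did. DESeq2 called 0 of the 10 and 12 genes in all. The log2 fold changes of the 10 genes ran from -0.031 to 0.0997, and their 95% intervals together spanned -0.156 to 0.249, so changes of the size seen with EST in Vector cells for Slc2a1, Hk1, Hk2 and Eno1 lay outside them. SREBP2 library 1 and SREBP2+EST library 1, which stand apart, bear on this comparison. Without both, 1567 genes were called, but still 0 of the 10, and Slc2a1 and Pfkl had the largest log2 fold changes, at 0.164 (edgeR adjusted p = 0.114) and 0.157 (adjusted p = 0.123).

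**Figure D2:**
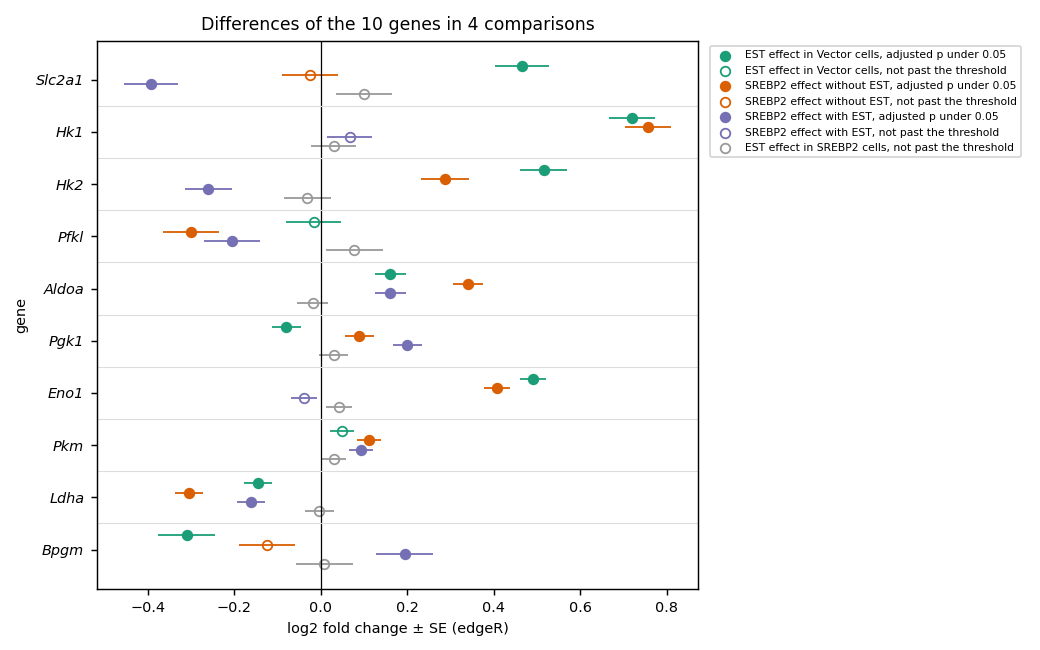
Log2 fold change of each of the 10 genes with its standard error in 4 comparisons, from edgeR on 12 libraries, with filled points for an adjusted p under 0.05. The differences of EST in SREBP2 cells lie between -0.031 and 0.0997 and are all open, while Hk1 reaches 0.72 and 0.76 in the comparisons of EST and of SREBP2 with Vector.

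Uptake of glucose was represented by Slc2a1 (Entrez 20525, chr4:119108745-119137330, plus strand), which encodes GLUT1. Slc2a1 counted 28.9, 28.5 and 27.6 CPM in the Vector libraries and 39.3, 39.2 and 38.9 CPM in the Vector+EST libraries. It stood at 27.8, 28.7 and 27.1 CPM in the SREBP2 libraries and at 27.1, 29.3 and 33.1 CPM in the SREBP2+EST libraries. The Vector+EST libraries thus lay above all 9 others, and SREBP2 overlapped both Vector and SREBP2+EST. In Vector cells EST raised Slc2a1 by 0.47 ± 0.063 on the log2 scale (SE, here and in later fold changes; edgeR adjusted p = 5.27e-06). The fragment alone gave -0.025 ± 0.065 (adjusted p = 0.742), with a 95% interval from -0.175 to 0.124. With EST present, Slc2a1 was lower with the fragment, at -0.39 ± 0.063 on the log2 scale (adjusted p = 0.00023). The response of Slc2a1 to EST differed between SREBP2 and Vector cells by -0.37 ± 0.090 (adjusted p = 0.00238).

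Hexokinases trap glucose in the cell as glucose 6-phosphate. Hk1 (Entrez 15275, chr10:62268855-62379920, minus strand), the constitutive form of red cells, stood at 232, 225 and 235 CPM in Vector, and in the other groups it lay between 355 and 422 CPM. All 9 other libraries were above the 3 Vector libraries. Hk1 rose 1.65-fold with EST in Vector cells, a log2 fold change of 0.72 ± 0.053 (edgeR adjusted p = 4.78e-09). With the fragment alone Hk1 rose 1.69-fold, or 0.76 ± 0.053 on the log2 scale (adjusted p = 2.39e-09). The SREBP2 and Vector+EST groups, compared directly, gave 0.037 ± 0.053 for Hk1, with a 95% interval from -0.085 to 0.158. Hk1 carried the largest differences of the 10 genes in both comparisons with Vector.

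Hk2 (Entrez 15277, chr6:82725025-82774454, minus strand), the inducible hexokinase, made up 6.24% to 8.76% of hexokinase transcripts per length in the group means. Its Vector libraries read 24.1, 23.6 and 26.0 CPM and its Vector+EST libraries 36.1, 35.0 and 34.2 CPM. The SREBP2 libraries read 30.5, 30.3 and 29.2 CPM and the SREBP2+EST libraries 29.4, 28.6 and 30.0 CPM. Vector was the lowest group and Vector+EST the highest without overlap, and both SREBP2 groups lay between them. Hk2 rose with EST in Vector cells by 0.52 ± 0.054 on the log2 scale (edgeR adjusted p = 2.89e-07) and with the fragment alone by 0.29 ± 0.055 (adjusted p = 0.000191). Between SREBP2 and Vector+EST the log2 difference was -0.23 ± 0.053 (adjusted p = 0.00512). Both hexokinases together went from 67.5 ± 1.70 CPM per kb in Vector to 111 ± 5.66 in SREBP2, 109.9 ± 6.17 in Vector+EST and 113 ± 6.33 in SREBP2+EST, and Hk1 made up 91.2% to 93.8% of the sum.

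Phosphofructokinase commits hexose to glycolysis, and Pfkl (Entrez 18641, chr10:77986947-78009807, minus strand) encodes its liver form. Pfkl stood at 66.2, 60.0 and 62.4 CPM in Vector and at 62.5, 57.3 and 66.8 CPM in Vector+EST. It stood at 51.9, 49.9 and 51.5 CPM in SREBP2 and at 48.9, 56.4 and 56.5 CPM in SREBP2+EST. Each library with the fragment lay below every library without it. Pfkl fell with the fragment alone, at -0.30 ± 0.065 on the log2 scale (edgeR adjusted p = 0.00064). With EST present the value was -0.21 ± 0.065 (adjusted p = 0.0334), and this call was lost without Vector+EST library 1 (adjusted p = 0.0906), Vector+EST library 5 (0.151) or SREBP2+EST library 1 (0.133), without both libraries 1 (-0.14, 0.0716) and with only the groups compared (0.0564). EST in Vector cells gave -0.016 ± 0.064 for Pfkl (adjusted p = 0.829), and its sign turned without Vector library 1 (0.021) or Vector+EST library 3 (0.040).

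Far larger differences were measured in the other isoforms of this step. Pfkm, the muscle form, stood between 69.8 and 73.9 CPM in Vector and between 521 and 580 CPM in the other 9 libraries. It rose 7.60-fold with EST in Vector cells, a log2 fold change of 2.93 ± 0.041 (edgeR adjusted p = 7.75e-17), and 7.83-fold with the fragment alone (2.97 ± 0.041, adjusted p = 3.17e-17). Pfkp, the platelet form, fell in the same 2 comparisons, by log2 fold changes of -0.86 ± 0.0465 (adjusted p = 9.71e-11) and -0.85 ± 0.0465 (adjusted p = 1.05e-10). Per length, Pfkm made up 30.9% ± 0.889 (SD, n = 3) of phosphofructokinase transcripts in Vector and 84.7% ± 0.095 in SREBP2, 83.3% ± 0.262 in Vector+EST and 84.6% ± 0.312 in SREBP2+EST. Pfkl went from 20.6% ± 0.727 in Vector to between 5.86% and 7.21% in the other groups. The summed level went from 81.8 ± 1.46 to 234 ± 6.60, 231 ± 7.89 and 239 ± 3.64 CPM per kb in the same order. Among the other genes searched, which leave out Slc2a3, Slc2a4 and Eno1b, GATA motifs were found before Pfkm, before Pklr, which fell with EST in Vector cells, before Pfkfb4, an enzyme of fructose 2,6-bisphosphate control, and before Eno3, which did not pass (log2 fold change -0.10 ± 0.055, adjusted p = 0.107). Most of the other genes searched had none, and over all windows the share with this motif was 18.6%. Pfkfb4 was the only gene of its list that was searched. The first promoter window of Pfkm held 3 GATA motifs, beside an E-box and hypoxia response cores that are not marked, in capitals in the stretch chr15:98092439-98092588 on the plus strand.
Pfkm: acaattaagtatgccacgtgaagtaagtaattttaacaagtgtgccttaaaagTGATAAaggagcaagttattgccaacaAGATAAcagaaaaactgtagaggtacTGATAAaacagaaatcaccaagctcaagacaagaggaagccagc

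**Figure D3:**
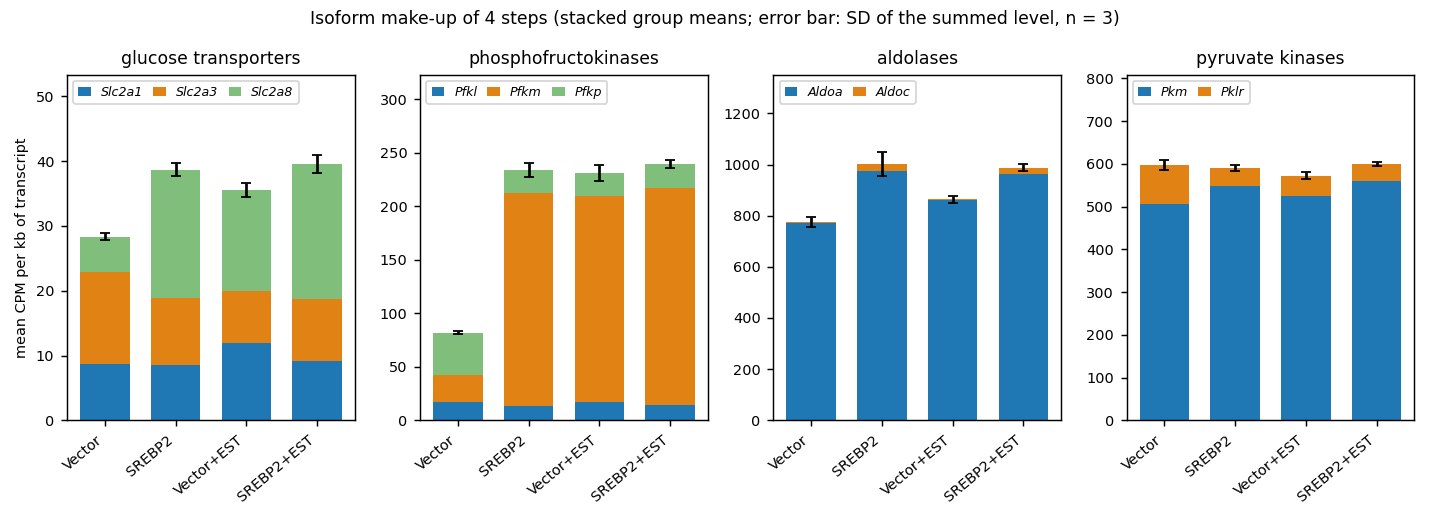
Stacked group means of isoform levels in CPM per kilobase of transcript for glucose transporters, phosphofructokinases, aldolases and pyruvate kinases, with the SD of the summed level of 3 libraries. Pfkm fills 30.9% of the phosphofructokinase bar in Vector and 83.3% to 84.7% in the other groups, whereas Aldoa and Pkm fill most of theirs in every group.

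Aldolase splits fructose 1,6-bisphosphate, and Aldoa (Entrez 11674, chr7:126795234-126800994, minus strand) is its form in red cells and muscle. The libraries read 1179, 1129 and 1128 CPM in Vector and 1278, 1263 and 1301 CPM in Vector+EST. With the fragment they read 1375, 1463 and 1514 CPM in SREBP2 and 1432, 1414 and 1451 CPM in SREBP2+EST. Vector lay lowest, Vector+EST next and both SREBP2 groups highest, with no overlap between these 3 levels. Aldoa rose with EST in Vector cells by 0.16 ± 0.035 on the log2 scale (edgeR adjusted p = 0.000698), with the fragment alone by 0.34 ± 0.035 (adjusted p = 2.52e-07) and with the fragment in EST by 0.16 ± 0.035 (adjusted p = 0.00355).

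Larger differences were measured in a minor aldolase. Aldoc, the brain form, stood at 6.32 ± 0.858 CPM in Vector and 5.48 ± 0.522 CPM in Vector+EST, against 56.0 ± 2.18 CPM in SREBP2 and 54.1 ± 1.66 CPM in SREBP2+EST (SD, n = 3). Its log2 fold change was 3.15 ± 0.080 for the fragment without EST (edgeR adjusted p = 9.47e-15) and 3.30 ± 0.083 with EST (adjusted p = 2.46e-14). For EST in Vector cells it was -0.21 ± 0.11 (adjusted p = 0.101), and the direct comparison of SREBP2 with Vector+EST gave 3.35 ± 0.083 (adjusted p = 1.94e-14). Even so, Aldoc made up no more than 2.49% of aldolase transcripts per length in any group mean. Among the same genes, the sterol regulatory element motif was found before Slc2a8 and before Aldoc, in capitals in the stretch chr11:78322953-78323072 on the plus strand.
Aldoc: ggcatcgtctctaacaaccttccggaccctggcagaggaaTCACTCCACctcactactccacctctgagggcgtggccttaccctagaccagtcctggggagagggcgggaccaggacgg

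Phosphoglycerate kinase makes the first ATP of the pathway from its gene Pgk1 (Entrez 18655, chrX:106187100-106203699, plus strand). The Vector libraries held 407, 422 and 413 CPM of Pgk1 and the Vector+EST libraries 395, 397 and 383 CPM. The SREBP2 libraries held 442, 432 and 446 CPM and the SREBP2+EST libraries 445, 465 and 439 CPM. The 6 libraries with the fragment lay above the other 6, and Vector+EST lay lowest. With EST present the fragment raised Pgk1 by 0.20 ± 0.034 on the log2 scale (edgeR adjusted p = 0.000368). The other differences were near the threshold: -0.080 ± 0.034 for EST in Vector cells (adjusted p = 0.0439) and 0.089 ± 0.034 for the fragment alone (adjusted p = 0.0256). The first was lost without any 1 of the Vector+EST libraries or SREBP2 library 3 (adjusted p between 0.0511 and 0.0705), and it was kept in 6 of 9 other alternatives, not with no filter on low counts (0.0928). The second was kept in only 5 of the 12 fits that left out 1 library, those without SREBP2 library 1 or 3, Vector+EST library 1 or 3, or SREBP2+EST library 1, and the others gave adjusted p up to 0.281. It passed under none of the 9 other alternatives, among them DESeq2 (0.0954). Of the 50-base words in Pgk1 transcripts, the length of the reads, 68.0% occur in another annotated gene, mainly the copy Pgk1-rs7, which limits the certainty of its count.

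Enolase forms phosphoenolpyruvate, and Eno1 (Entrez 13806, chr4:150236708-150248879, plus strand) is its common form. Eno1 counted 835, 817 and 817 CPM in Vector and 1089, 1089 and 1098 CPM in SREBP2. With EST it counted 1148, 1146 and 1175 CPM in Vector cells and 1093, 1121 and 1162 CPM in SREBP2 cells. The 3 Vector libraries were well below the other 9. Eno1 rose 1.41-fold with EST in Vector cells (log2 fold change 0.49 ± 0.030, edgeR adjusted p = 4.6e-10) and 1.33-fold with the fragment alone (0.41 ± 0.030, adjusted p = 4.04e-09). With EST present the fragment gave -0.039 ± 0.030 (adjusted p = 0.387), which passed with library totals (-0.084, 0.0416). In the direct comparison SREBP2 gave -0.083 ± 0.030 against Vector+EST (adjusted p = 0.0578), and the value passed without SREBP2+EST library 1 (0.0424), without it and SREBP2 library 1 (0.0279), with DESeq2 (0.0126), with RLE scaling (0.0343) and with library totals (-0.13, 0.00435). Eno1 shares 57.2% of its 50-base words with other genes, chiefly its copy Eno1b. With the counts of both summed, the log2 fold changes were 0.49 and 0.41.

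Pyruvate kinase yields pyruvate and ATP, and Pkm (Entrez 18746, chr9:59656576-59679372, plus strand) was the steadiest of the 10 genes. Without the fragment, Pkm read 1156, 1124 and 1117 CPM in Vector and 1163, 1168 and 1185 CPM in Vector+EST. With it, Pkm read 1233, 1236 and 1203 CPM in SREBP2 and 1235, 1268 and 1248 CPM in SREBP2+EST. All 6 libraries with the fragment lay above the other 6. Its highest library was 1.14 times its lowest. The fragment raised Pkm by 0.11 ± 0.028 on the log2 scale without EST (edgeR adjusted p = 0.00214) and by 0.093 ± 0.028 with EST (adjusted p = 0.0266). The first was lost without Vector library 4 (adjusted p = 0.0896) or 5 (0.0978), and with library totals in place of TMM scaling (0.096). The second was lost without Vector+EST library 1 (0.0913) or 3 (0.0842) and without SREBP2+EST library 2 (0.0985) or 5 (0.0613), with RLE scaling (0.0672), with no filter on low counts (0.0614) and with library totals, where the log2 fold change was 0.048 (0.221). EST in Vector cells gave 0.049 ± 0.028 (adjusted p = 0.131). Reads of the splice forms M1 and M2 are not separated in the count, and 36.3% of the 50-base words of Pkm occur in other genes.

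Pklr, which encodes the pyruvate kinase of red cells and liver, fell in both comparisons with Vector. Its level was 261 ± 12.7 CPM in Vector and 137 ± 9.79 CPM in Vector+EST (SD, n = 3), and with the fragment 123 ± 17.9 CPM without EST and 115 ± 10.9 CPM with it. Its log2 fold change was -0.92 ± 0.087 with EST in Vector cells (edgeR adjusted p = 9.01e-08) and -1.09 ± 0.088 with the fragment alone (adjusted p = 1.26e-08). The share of Pkm among pyruvate kinase transcripts per length was 84.7% ± 0.619 in Vector, 92.7% ± 1.05 in SREBP2, 91.6% ± 0.479 in Vector+EST and 93.3% ± 0.677 in SREBP2+EST.

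Lactate dehydrogenase restores NAD+ by reducing pyruvate, and Ldha (Entrez 16828, chr7:46842274-46855627, plus strand) encodes nearly all of it here, with Ldhb at 0.0895 CPM or less in the group means. Ldha counted 1621, 1624 and 1621 CPM in the Vector libraries and 1476, 1473 and 1449 CPM in the Vector+EST libraries. It counted 1245, 1334 and 1360 CPM in SREBP2 and 1333, 1305 and 1294 CPM in SREBP2+EST. Vector was highest, Vector+EST next and both SREBP2 groups lowest, without overlap between these levels. Ldha fell with EST in Vector cells, at a log2 fold change of -0.15 ± 0.033 (edgeR adjusted p = 0.000829), with the fragment alone by -0.30 ± 0.033 (adjusted p = 3.74e-07) and with the fragment in EST by -0.16 ± 0.033 (adjusted p = 0.00188). Its order of groups was thus the reverse of that of Aldoa.

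Bpgm (Entrez 12183, chr6:34476356-34505136, plus strand), which encodes the enzyme that makes 2,3-BPG, was low and counted between 397 and 532 reads per library. It stood at 25.1, 25.2 and 27.2 CPM in Vector and at 20.5, 21.0 and 21.1 CPM in Vector+EST. It stood at 22.0, 25.1 and 24.0 CPM in SREBP2 and at 25.1, 22.5 and 24.0 CPM in SREBP2+EST. Vector+EST was lowest without overlap, and the SREBP2 groups overlapped each other. The highest SREBP2 library reached into the range of Vector, and SREBP2+EST ended just below it. Bpgm fell 1.24-fold with EST in Vector cells, a log2 fold change of -0.31 ± 0.066 (edgeR adjusted p = 0.000509), which held in all 12 fits that left out 1 library. The fragment alone gave -0.12 ± 0.065 (adjusted p = 0.097), and over fits that left out 1 library the value ran from -0.18, without Vector library 4, to -0.073, without SREBP2 library 1. It passed without Vector library 4 (adjusted p = 0.0412) or SREBP2 library 3 (0.0475), with library totals (-0.18, 0.0159) and with at least 10 counts in every library (0.0402). With EST the fragment raised Bpgm by 0.19 ± 0.067 (adjusted p = 0.0475), but of the fits that left out 1 library it was kept in those without SREBP2 library 1 or 3 or SREBP2+EST library 2, and the other 9 gave adjusted p between 0.0506 and 0.149. It was kept in 2 of 9 other alternatives, with only the groups compared (0.0449) and with at least 10 counts in every library (0.0408), and DESeq2 gave adjusted p = 0.145.

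Minpp1, a phosphatase that can also degrade 2,3-BPG, moved more than Bpgm. Its level was 110.4 ± 2.28 CPM in Vector (SD, n = 3), against 187 ± 4.74 CPM in Vector+EST and, with the fragment, 189 ± 23.7 CPM without EST and 186 ± 14.7 CPM with it. It rose with EST in Vector cells by 0.76 ± 0.074 on the log2 scale (edgeR adjusted p = 1.29e-07) and with the fragment alone by 0.78 ± 0.074 (adjusted p = 9.3e-08). Of its 50-base words 29.1% occur in another gene.

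**Figure D4:**
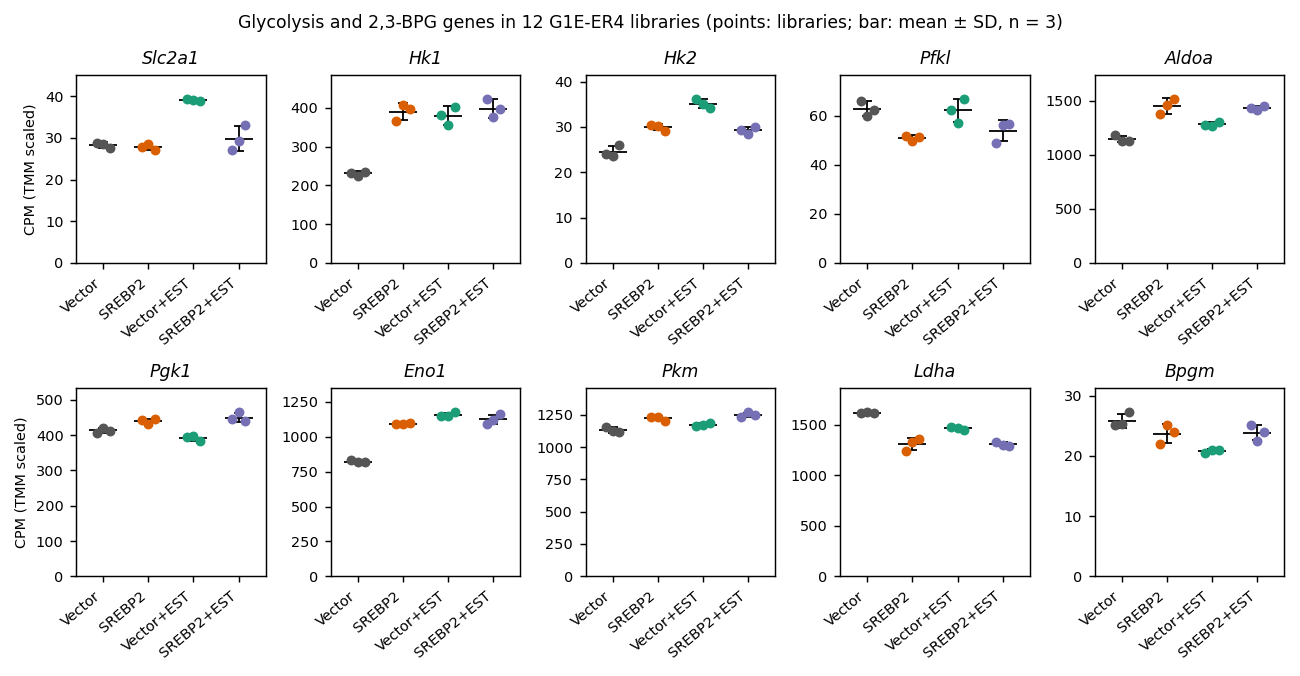
CPM of each of the 10 genes in each library, 1 panel per gene with its own axis from 0, with points for the 3 libraries of a group and a bar for mean and SD. In Hk1 and Eno1 the Vector libraries lie below the other 9, in Slc2a1 the Vector+EST libraries lie above the other 9, and in Bpgm they lie below the other 9.

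The interaction tested whether EST acted differently on the 10 genes in SREBP2 cells and in Vector cells. The difference passed for 7 of them, 2 above 0 and 5 below, where 59.0% of all genes were called, 29.8% above 0 and 29.2% below, and 69.5% of those at least as high as the lowest of the 10. Without SREBP2 library 1 and SREBP2+EST library 1, 9 passed. It was -0.69 ± 0.075 for Hk1 (edgeR adjusted p = 9.34e-07), -0.55 ± 0.076 for Hk2 (adjusted p = 1.39e-05) and -0.45 ± 0.042 for Eno1 (adjusted p = 1.99e-07) on the log2 scale. It was smaller for Aldoa at -0.18 ± 0.050 (adjusted p = 0.00567), and positive for Ldha at 0.14 ± 0.046 (adjusted p = 0.0142) and Bpgm at 0.32 ± 0.093 (adjusted p = 0.00764). In each of these the EST effect was nearer 0 in SREBP2 cells than in Vector cells. Pfkl, Pkm and Pgk1 did not pass, and the value of Pgk1 was 0.11 ± 0.047 (adjusted p = 0.056). Pgk1 passed with DESeq2 (0.0261), RLE scaling (0.0382), library totals (0.0406) and at least 10 counts in every library (0.0152), and without Vector library 4 (0.041) or 5 (0.0279), SREBP2 library 5 (0.0463) or SREBP2+EST library 5 (0.026). Without both libraries 1, Pgk1 (0.00712) and Pfkl (0.0347) passed.

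The single treatments were compared with each other directly, since their comparisons with Vector share libraries. SREBP2 and Vector+EST differed for 6 of the 10 genes, 2 higher and 4 lower in SREBP2, where 23.4% of all genes were called, 14.4% higher and 8.96% lower, and 27.9% of those at least as high as the lowest of the 10. Without SREBP2 library 1 and SREBP2+EST library 1, 8 differed. Slc2a1 had the largest difference, at -0.49 ± 0.063 on the log2 scale (edgeR adjusted p = 2.26e-05). Pfkl was lower in SREBP2 by -0.28 ± 0.066 (adjusted p = 0.00491) and Ldha by -0.16 ± 0.033 (adjusted p = 0.00202), whereas Aldoa was higher by 0.18 ± 0.035 (adjusted p = 0.0014) and Pgk1 by 0.17 ± 0.034 (adjusted p = 0.00153). The difference of Hk1 did not pass, and neither did those of Eno1, Pkm or Bpgm. Eno1 passed under the alternatives given with its values. For Pkm the value was 0.062 ± 0.028 (adjusted p = 0.128), with a 95% interval from -0.00275 to 0.128, and for Bpgm it was 0.19 ± 0.067 (adjusted p = 0.0554), from 0.032 to 0.339. The Bpgm difference passed without SREBP2 library 1 (0.014), SREBP2+EST library 1 (0.0497) or SREBP2+EST library 2 (0.0499), without both libraries 1 (0.00865) and with at least 10 counts in every library (0.0451).

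Around the 10 genes, 24 other glycolytic enzymes and isoforms were listed, of which 17 were tested. EST in Vector cells changed 12 of them, 5 upward and 7 downward, with a median log2 fold change of -0.17. The fragment alone changed 11, 5 upward and 6 downward, with a median of 0.06, and the fragment in EST changed 4, 2 upward and 2 downward, with a median of -0.010. Over all genes 70.6%, 71.5% and 21.9% were called in these comparisons, so the counts are near the background. Triosephosphate isomerase, Tpi1, fell by -0.28 ± 0.032 with EST in Vector cells (edgeR adjusted p = 8.41e-07) and by -0.40 ± 0.032 with the fragment alone (adjusted p = 1.43e-08). Glucose 6-phosphate isomerase, Gpi1, fell by -0.17 ± 0.031 (adjusted p = 0.000179) and -0.19 ± 0.032 (adjusted p = 6.17e-05). Gapdh, at 3469 ± 121 CPM in Vector, gave 0.054 ± 0.038 and 0.062 ± 0.038 and passed in neither (adjusted p = 0.222 and 0.159). Of its 50-base words 78.3% occur in other genes, so its count is uncertain.

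Slc2a1 was set beside the listed glucose transporters. Slc2a8, an intracellular transporter, rose by 1.52 ± 0.079 on the log2 scale with EST in Vector cells (edgeR adjusted p = 6.51e-11) and by 1.85 ± 0.0775 with the fragment alone (adjusted p = 3.44e-12). Slc2a3, which encodes GLUT3, fell by -0.85 ± 0.10 (adjusted p = 1.85e-06) and -0.45 ± 0.10 (adjusted p = 0.000858). Per length, Slc2a1 made up 30.6% ± 0.507 of the sum of Slc2a1, Slc2a3 and Slc2a8 in Vector, 22.1% ± 0.681 in SREBP2, 33.8% ± 1.17 in Vector+EST and 23.1% ± 1.52 in SREBP2+EST.

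**Figure D5:**
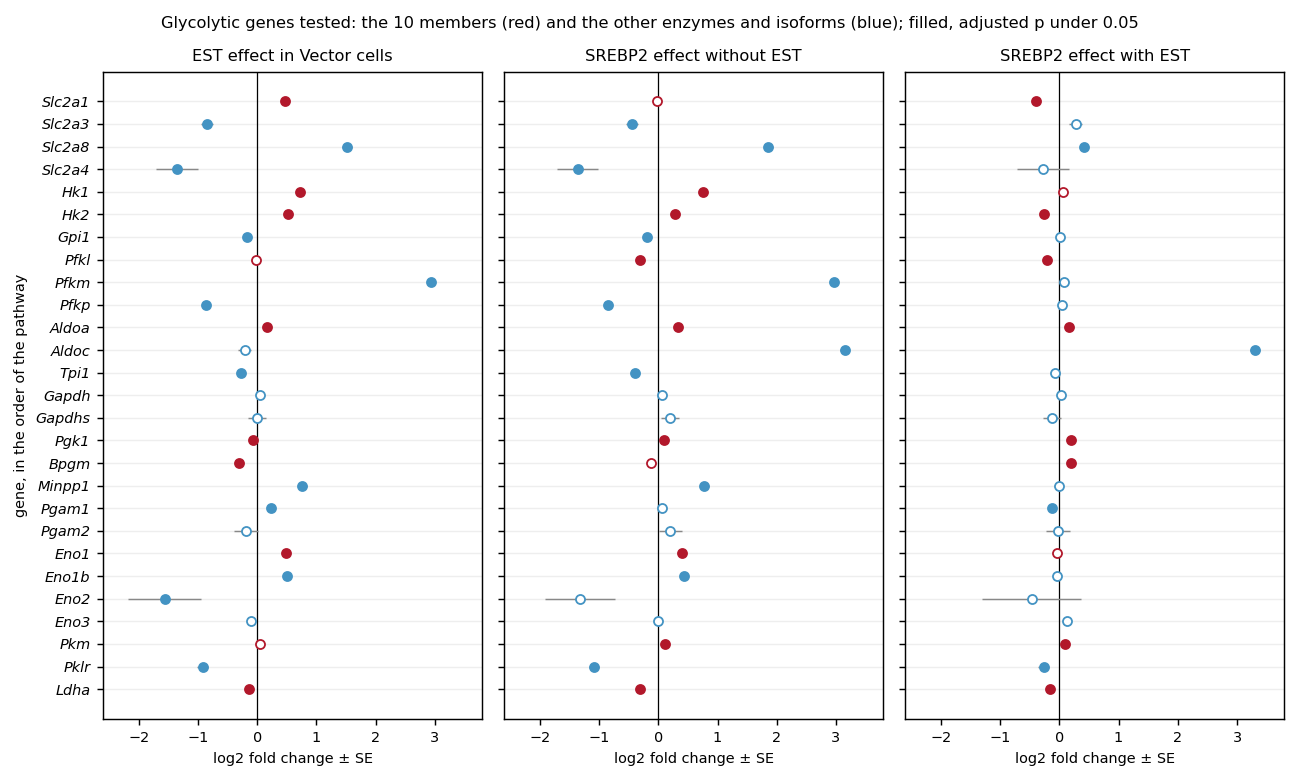
Log2 fold change with standard error for the tested glycolytic genes in the order of the pathway, for EST in Vector cells, the fragment without EST and the fragment with EST, with the 10 genes in red, the other enzymes and isoforms in blue and filled points for an adjusted p under 0.05. Pfkm at 2.93 and 2.97 and Aldoc at 3.15 and 3.30 lie far to the right of the 10 genes, which stay between -0.39 and 0.76.

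Enzymes that set or draw on the flux were counted from further lists. Of 4 tested genes that control fructose 2,6-bisphosphate, the activator of phosphofructokinase, 4 rose with EST in Vector cells, 3 with the fragment alone and 1 with the fragment in EST. For this list and those that follow, the shares of all genes called in the same comparisons were 70.6%, 71.5% and 21.9%, and with so few genes in a list the counts say little beside them. Pfkfb4 moved most, from 10.3 ± 0.375 CPM in Vector to 31.7 ± 3.85 CPM in Vector+EST and, with the fragment, to 105.1 ± 4.59 CPM without EST and 105.5 ± 3.31 CPM with it. Of 3 lactate transport genes, EST in Vector cells raised 1 and lowered 2, and the fragment alone raised 2 and lowered 1. The lactate exporter Slc16a3 rose by 1.42 ± 0.22 with EST in Vector cells (edgeR adjusted p = 2.39e-05), from a level of 0.938 ± 0.183 CPM in Vector, while its chaperone Bsg fell by -0.97 ± 0.042 (adjusted p = 6e-12). With the fragment in EST, 2 rose, led by Slc16a1 at 0.55 ± 0.053 (adjusted p = 7.05e-07).

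Of 8 tested genes of the pentose phosphate pathway, which branches off after hexokinase, 3 rose and 4 fell with EST in Vector cells, 5 rose and 2 fell with the fragment alone, and 4 rose with the fragment in EST, against 70.6%, 71.5% and 21.9% of all genes called. Rpia rose most in the first 2 comparisons, by log2 fold changes of 0.94 ± 0.046 (edgeR adjusted p = 2.91e-11) and 1.58 ± 0.046 (adjusted p = 4.28e-14), and Pgd in the third, by 0.92 ± 0.060 (adjusted p = 6.69e-09). H6pd fell in the first 2, by -1.31 ± 0.24 (adjusted p = 0.000118) and -1.33 ± 0.24 (adjusted p = 0.000108), from a level of 2.22 CPM in Vector. Of 13 tested genes of pyruvate entry to mitochondria, 6 rose and 5 fell with EST in Vector cells and 3 rose and 5 fell with the fragment alone, against the same shares. The pyruvate dehydrogenase kinase Pdk2 fell most in both, by -0.87 ± 0.12 (adjusted p = 4.6e-06) and -0.85 ± 0.12 (adjusted p = 6.43e-06). With the fragment in EST, 2 rose and 3 fell, with Pdp2 highest at 0.51 ± 0.045 (adjusted p = 2.39e-07) and Pdk1 lowest at -0.26 ± 0.044 (adjusted p = 0.000327).

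Several of the 10 genes, among them Slc2a1, Hk2, Pgk1 and Ldha, are known targets of hypoxia-inducible factors, so 11 tested genes of the hypoxia response outside the 10 were counted. With EST in Vector cells 6 rose and 3 fell, with the fragment alone 7 rose and 2 fell, and with the fragment in EST 2 rose and 1 fell, near the 70.6%, 71.5% and 21.9% of all genes called. Hif1a rose with EST in Vector cells by 1.10 ± 0.051 on the log2 scale (edgeR adjusted p = 1.49e-11) and with the fragment alone by 1.12 ± 0.051 (adjusted p = 9.64e-12), while EST in SREBP2 cells gave 0.023 ± 0.049 (adjusted p = 0.959). Vegfa fell with EST in Vector cells by -0.98 ± 0.11 (adjusted p = 6.58e-07) and rose with the fragment alone by 1.12 ± 0.093 (adjusted p = 1.69e-08) and with the fragment in EST by 2.05 ± 0.10 (adjusted p = 1.95e-10). Of 9 tested genes of glycogen and gluconeogenesis, 1 rose and 6 fell with EST in Vector cells, 2 rose and 5 fell with the fragment alone, and 3 rose with the fragment in EST, against the same shares. The glycogen phosphorylase Pygb rose most with the fragment, by 1.23 ± 0.055 without EST (adjusted p = 8.32e-12) and 1.53 ± 0.056 with EST (adjusted p = 2.91e-12), and Pcx most with EST in Vector cells, by 0.65 ± 0.043 (adjusted p = 1.33e-09).

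The genes whose pattern over the 12 libraries was most like that of Bpgm were sought among 8553 genes, by the root mean square difference of centred log2 CPM. They were Trak1 at 0.040, Ipmk at 0.044 and Dhdds at 0.050. For Slc2a1 they were Osr2 at 0.080, Rmi2 at 0.082 and Prcc at 0.083. None of these 6 genes is a glycolytic enzyme.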

How the data were processed

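RNA was sequenced as 50-base single reads. The submitters' processing notes name the build GRCm38.p6 and the tools HISAT2 2.0.4, Bowtie2 2.2.5, RSEM 1.2.12 and DESeq2 1.4.5, with no role or order. Values are the raw estimated counts of genes that the authors deposited. A second deposited table holds the authors' own pairwise fold changes and p-values and was not used.

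Estimated counts were rounded. Genes were kept by filterByExpr of edgeR 4.0.16 (11177 kept, 6033 left out), scaled by TMM and tested by the quasi-likelihood F-test in R 4.3.3, on all 12 libraries with 1 mean per group. Adjustment was by Benjamini-Hochberg over all genes tested, at 0.05. Standard errors are the log2 fold change over the square root of F, and 95% intervals use the 8 residual degrees of freedom. The procedure was tested on simulated data.

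Library totals were 18700959 to 19152281 counts, and 3 counts correspond to 0.153 to 0.163 CPM. Intervals cover the spread between these libraries only. Transcript lengths and shared 50-base words came from GENCODE M21, and promoter windows from RefSeq. Groups came from the sample titles. Replicates of a group differed by more than counting error in every pair.

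The 10 genes and all lists were chosen with earlier results of these data known. All 10 and the other glycolytic isoforms could be named whatever their values, and from each further list the called gene with the largest rise or fall per comparison; 3 genes nearest Bpgm and Slc2a1 had an average log2 CPM of at least 3. Alternatives were DESeq2 1.42.0, RLE scaling, library totals only, other low-count filters, only the groups compared, a block for the header number, and leaving out libraries. Summing Eno1 and Eno1b was chosen after seeing the data.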

Additional observations from a re-analysis of the deposited data

Results flagged for a closer look

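For 7 of the 10 genes the EST effect differed between SREBP2 and Vector cells by a test of the difference itself (edgeR interaction, adjusted p under 0.05), where 59.0% of all genes and 69.5% of those at least as high as the lowest of the 10 were called. On the log2 scale, the EST effect in SREBP2 cells minus that in Vector cells was -0.37 for Slc2a1, -0.69 for Hk1, -0.55 for Hk2, -0.18 for Aldoa, -0.45 for Eno1, 0.14 for Ldha and 0.32 for Bpgm. With 3 libraries per group, no gene was tested for a single outlying value.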

How the results depend on the processing

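The library numbers of the count table headers did not pair the samples: over 13 pairs with the same number, deviations from the group means correlated at -0.174 to 0.0674. With these numbers as a replicate block, 4 of the 10 genes passed for the fragment with EST (2 higher, 2 lower) and 4 for the interaction (1 higher, 3 lower), against 8 and 7, and the cause was not tested. The calls lost for the fragment with EST were those of Hk2 (edgeR adjusted p = 0.0654), Pkm (0.233), Ldha (0.0672) and Bpgm (0.0722). For the interaction, the calls of Slc2a1 (0.0516), Aldoa (0.0844) and Ldha (0.0762) were lost. Over the fits that left out 1 library each, the genes called ran from 7 to 8 for EST in Vector cells, 6 to 9 for the fragment without EST, 5 to 8 for the fragment with EST, 7 to 8 for the interaction and 6 to 8 for SREBP2 against Vector+EST, and stayed at 0 for EST in SREBP2 cells. Values near 0 changed sign. Pfkl with EST in Vector cells ran from -0.089 to 0.040 over those fits. The interaction of Pkm ran from -0.033 to 0.027, and was 0.014 with at least 10 counts in every library, 0.034 without SREBP2 library 1 and SREBP2+EST library 1, and 0.0043 without Vector+EST library 5. Hk1 in SREBP2 against Vector+EST ran from -0.0094 to 0.082, and was -0.0061 with library totals only. Hk1, Hk2, Eno1, Aldoa and Ldha passed in both comparisons with Vector under every alternative run. A fit of only the groups compared could not be made for the interaction, which uses all groups.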
